A study of Mus musculus with 15 samples.

Results

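Complex I of the respiratory chain was followed gene by gene in sorted mouse islet cells, with its structural subunits set against the factors that assemble it. The members were all entries whose symbol begins with Nduf and that are not pseudogenes, 42 of the 23699 entries listed for each library. They were 36 structural subunits (symbols Ndufa, Ndufab, Ndufb, Ndufc, Ndufs and Ndufv), 4 assembly factors (Ndufaf1 to Ndufaf4) and 2 genes, Ndufa4 and Ndufa4l2, that carry the symbol but are not complex I subunits. The study sorted RFP-positive islet cells by aldehyde dehydrogenase activity, read from a fluorescent substrate of the enzyme, and asked how ALDH+ cells differ from ALDH- cells when Foxo genes are present or absent. Poly-A RNA was sequenced in 15 libraries, namely 3 of ALDH- and 2 of ALDH+ control cells, and 5 of each population from Foxo knockouts.

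All mice were on a mixed 129J and C57BL/6 background and carried a Cre driver with a Rosa26-Tomato reporter, so that RFP marked cells in which Cre had been active. The control animals are labelled triple heterozygous for Foxo1, Foxo3 and Foxo4, whereas the published account calls them wild-type, and the knockouts are labelled triple knockout for the same genes. In 9 libraries the driver was RIP-Cre, which is active in beta cells, from mice that were 6 months old according to the methods. The other 6 libraries came from Pdx-Cre mice, whose age is not given in the sources used here, and Pdx-Cre acts in pancreatic precursors, so that RFP there marks the pancreatic lineage rather than beta cells alone. Islets were pooled from several animals of a genotype, and nothing states which libraries came from separate animals, so the p-values measure the spread between these libraries, which may be partly technical. In these bulk samples, fewer cells of a type and less RNA per cell cannot be told apart.

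Complex I takes electrons from NADH and passes them through a flavin and a chain of iron-sulphur clusters to ubiquinone, pumping protons across the inner mitochondrial membrane. It has an NADH-oxidising arm and a quinone-binding arm in the matrix and a proximal and a distal arm in the membrane, built from core subunits that do the catalysis, some of them encoded in mitochondrial DNA, and from accessory subunits around them. Assembly factors bind its intermediates and are absent from the finished enzyme, and in beta cells this chain supplies the ATP that couples glucose to insulin release.

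Values are FPKM (fragments scaled by transcript length and library size), rescaled between libraries by a trimmed mean. The knockout libraries are given in the order 1 to 5 and the controls in the order of their numbers, with the Pdx-Cre libraries last in each group (control ALDH- 3, control ALDH+ 2, and knockout 4 and 5 of both populations). A difference is given as a log2 fold change on the log2(FPKM + 1) scale with its standard error, which understates the change of low genes, and was tested with limma over all 15 libraries and 11253 genes, with the Cre driver as a covariate and p-values adjusted by Benjamini-Hochberg. Of the 42 members, 41 passed the filter on low values, a mean of at least 1 FPKM, and Ndufa4l2 did not.

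Library checks bear on what follows. Foxo1 lay between 12.1 and 19.3 FPKM in controls and between 0.10 and 4.06 in knockouts (log2 fold change -2.57 ± 0.32, limma adjusted p = 0.0019). Foxo3 did not pass the test (-0.08, adjusted p = 0.97), at 13.9 to 22.1 FPKM in controls and 10.04 to 31.1 in knockouts. Foxo4 was near the floor, at 0 to 1.29 FPKM in controls and 0 to 0.071 in knockouts. The gene-level value of Foxo3 thus showed no drop, and reads over single exons were not examined. Knockout here names the libraries so labelled. Aldh1a3, the enzyme behind the sort, was at 0.483 to 4.20 FPKM in ALDH- and 22.3 to 78.2 in ALDH+ libraries. Beta cell markers, of which Iapp alone gave 32064 to 120640 FPKM, summed to 89069 to 121420.0 FPKM in ALDH- and 33099 to 98876 in ALDH+ libraries, without the insulin genes, whose estimates were marked as too deep in 15 (Ins1) and 3 (Ins2) libraries. Iapp did not pass the averaged ALDH test (-0.75 ± 0.40, adjusted p = 0.31), nor did Mafa (0.07), Nkx6-1 (0.24), Pdx1 (0.12), Slc2a2 (-0.15) and Ucn3 (-0.02), and control ALDH+ 1, with the lowest sum, had the highest Nkx6-1 (93.7 FPKM) and Pdx1 (92.9) of all 15 libraries. Endothelial and stellate markers summed to at most 1.48 and 0.69, duct markers to 103 to 728 and leucocyte markers to 20.9 to 168. Acinar markers reached 1382 FPKM in control ALDH+ 2, 667 in knockout ALDH+ 5 and 389 in knockout ALDH- 5, against at most 9.05 elsewhere. One pair of ALDH+ libraries, control 1 and knockout 3, stood apart in the members and in other genes. Their subunits summed to 1511 and 1793 FPKM, against 2572 to 3027 in the other 5 ALDH+ libraries and 3185 to 4688 in the 8 ALDH- libraries. Control ALDH+ 1 was the lowest of all 15 libraries for 20 of the 36 subunits and knockout ALDH+ 3 for 11. The same count was not made over all genes. The 10 highest genes held 16.5% and 18.8% of the summed FPKM in this pair, against 25.1% to 29.4% in the other 5 ALDH+ libraries. Iapp was at 32064 and 43326 FPKM, against 69627 to 98029 in those 5.

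Across the subunits, transcripts were lower in ALDH+ than in ALDH- cells, by a median log2 fold change of -0.72 averaged over genotypes, while the median of all genes tested was -0.02. Of the 36 subunits, 21 were lower at an adjusted p below 0.05 and 0 higher, where 3.77% of all genes tested were lower and 2.22% higher. The fold change was below 0 for 35 of 36, against 52.3% of all genes. None of the 4 assembly factors passed the test (limma, where 2 were lower at an unadjusted p below 0.05, against 11.9% of all genes), and their median was -0.38, with 3 of 4 below 0. Ndufaf8, an assembly factor listed under an older symbol and so not among these 4, was called lower, as given below. The other Ndufaf genes under older symbols did not pass. The difference between the 2 classes was not itself tested, since members are not replicates. The 7 core subunits had a median of -0.42 with 2 called, the 29 accessory subunits -0.76 with 19 called. Core transcripts were listed at 870.5 to 2625.5 bases and accessory ones at 382 to 2447.5. The 16 subunits under 750 bases, a class in which 25.3% of all genes were called lower, were all accessory. The part of length in this contrast was not tested. By arm the medians were -0.79 in the NADH-oxidising arm (4 of 8 called), -0.49 in the quinone-binding arm (2 of 5), -0.72 in the proximal membrane arm (7 of 9) and -0.78 in the distal membrane arm (6 of 10), and -0.54 among 4 subunits placed in no arm here (2 of 4).

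**Figure D1:**
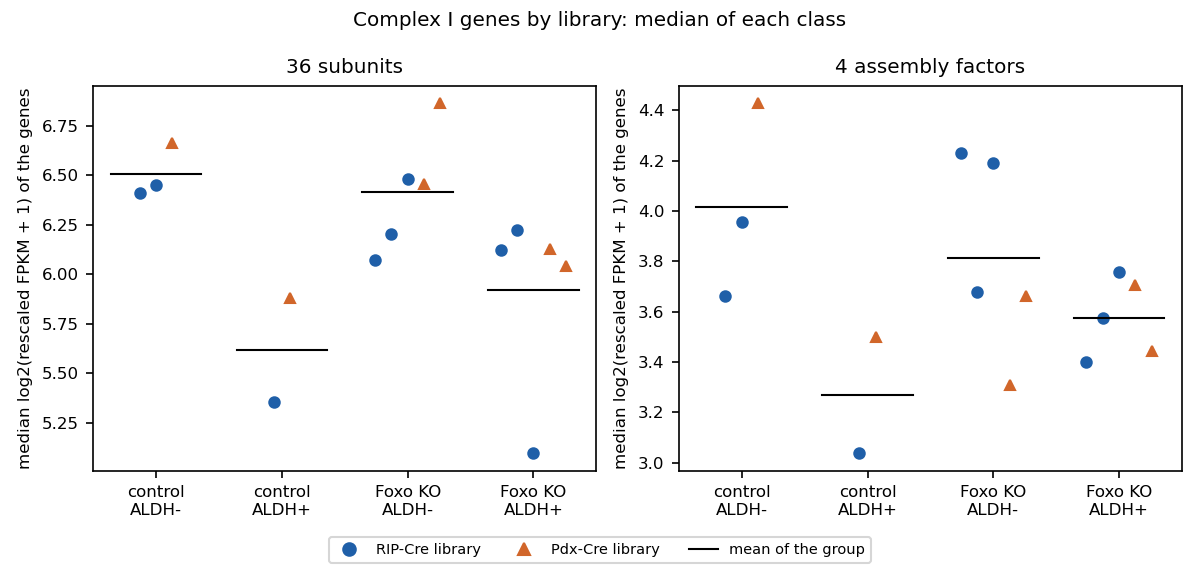
Median log2(rescaled FPKM + 1) of the 36 subunits and of the 4 assembly factors (vertical axes), 1 point per library by group (horizontal axis). The subunit median lay between 6.07 and 6.86 in ALDH- and between 5.10 and 6.22 in ALDH+ libraries, and the assembly factor median between 3.31 and 4.43 and between 3.04 and 3.76.

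The calls changed when single libraries were left out and when a trend on transcript length was removed. Without control ALDH+ 1, 0 members were called, where 3 of 11216 genes were called in all, and the medians were -0.60 for subunits and -0.24 for assembly factors. Leaving out control ALDH- 1 or 2 left 12 or 11 calls, where 361 or 303 genes were called. With control ALDH+ 1 and knockout ALDH+ 3 both left out, a choice made after their low values were seen, 0 members were called, where 3 of 11221 genes were, and the medians were -0.43 and -0.27. Subunit transcripts are short, with a median length of 810 bases (382 to 2625.5) against 1469 (617 to 3632) for the assembly factors. Among all genes tested, those under 750 bases had a median log2 fold change of -0.43 and 25.3% were called lower, whereas those of 3000 bases or more had a median of 0.09 and 0.481% were called lower. The 16 subunits under 750 bases had a median of -0.78 (13 called), the 13 from 750 to under 1500 bases -0.70 (6 called, where all genes of that length had a median of -0.24 and 8.84% called lower), and the 7 from 1500 to under 3000 bases -0.48 (2 called, where the genes had a median of -0.06 and 2.21% called lower). With the trend on length removed within each library, 4 subunits stayed below the threshold (Ndufb8, Ndufa5, Ndufs6 and Ndufa13), where 246 of 11128 genes were called, and the medians were -0.38 for subunits and -0.34 for assembly factors. These lengths are medians over reference transcripts and can differ from those behind the FPKM. Ndufb8 (1411 bases) had a median of 619 fragments at a mean of 141 FPKM, and Ndufaf1 (1451 bases) 68 at 5.46. The length classes and the removal of the trend are therefore approximate for single genes, Ndufb8 among them. RNAs retained in the nucleus (Malat1, Neat1, Meg3, Kcnq1ot1 and Snhg11) summed to 263 to 1597 FPKM in ALDH- and 2032 to 4834 in ALDH+ libraries. All 5 of 5 were higher (median log2 fold change 2.15), where 52.3% of all genes tested had a fold change below 0. Marker sums of alpha and delta cells were apart between the sorted populations under Pdx-Cre. The PP cell sums under Pdx-Cre and all such sums under RIP-Cre overlapped. Alpha cell markers summed to 10234 to 39828 FPKM in ALDH- and 579 to 6081 in ALDH+ libraries under Pdx-Cre, and to 1028 to 1368 and 485 to 1421 under RIP-Cre. For delta cell markers the sums were 8709.8 to 14869 and 755 to 2992 under Pdx-Cre and 399 to 1018 and 501 to 1323 under RIP-Cre, and for PP cell markers 3152 to 19813 and 319.6 to 4435 and, under RIP-Cre, 553 to 2090.1 and 362 to 822. Ppy, the PP cell hormone, was lower in ALDH+ cells (-2.10 ± 0.45, adjusted p = 0.013), and glucagon (Gcg) did not pass (-2.13 ± 0.65, adjusted p = 0.067). The part of the nuclear-retained RNAs and of these cells in the result was not tested.

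**Figure D2:**
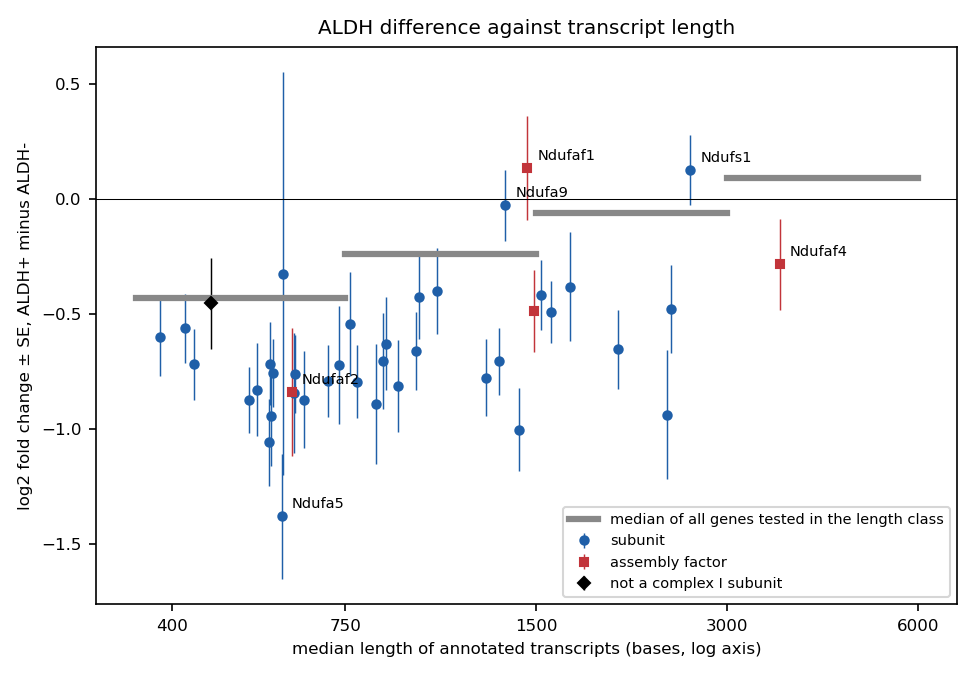
Log2 fold change of each member between ALDH+ and ALDH- cells, averaged over genotypes (vertical axis), against the median length of its annotated transcripts in bases (horizontal log axis), with grey bars for the median of all tested genes in each length class. The bars run from -0.43 under 750 bases to 0.09 at 3000 bases or more, and the subunit median lies below the bar in each length class that holds subunits.

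Nuclear respiratory genes are controlled by factors such as NRF1, GABP, YY1 and the ERR receptors, and the promoters of the members were searched for their letters. RefSeq promoter entries for GRCm38.p6 (250 bases before to 50 after the annotated start) matched 37 of the 42 members, among them 32 subunits and 4 assembly factors. The NRF1 letters (GCGC, any 2 bases and GCGC again), searched on both strands like the others, were in 28.1% of the subunit promoters (9 of 32) and in 1 of 4 of the assembly factors, and in 7.0% of all 27025 genes with an entry. The YY1 letters AAGATGGC were in 21.9% of the subunits (7 of 32), in 0 of 4 assembly factors and in 3.2% of all genes. The ETS/GABP letters CCGGAAG were in 12.5% of the subunits, in 1 of 4 assembly factors and in 9.9% of all genes, and the ERR letters TCAAGGTCA in 0 of either class and 0.5% of all genes. The stretches shown are the 250 bases before the annotated start on the minus strand for the called subunits Ndufa5 (the more upstream of its annotated starts, chr6:24527691-24527940) and Ndufs6 (chr13:73328483-73328732), both with the NRF1 letters, and for the assembly factor Ndufaf1 (chr2:119662835-119663084), with the ETS/GABP letters. Capitals mark these matches, which are descriptions and not binding sites. The NRF1 letters were found in called and uncalled members alike. Uncalled Ndufa8, Ndufs5, Ndufab1 and Ndufaf4 held them, and called Ndufb8, Ndufa7, Ndufc1, Ndufc2 and Ndufa13 did not.
Ndufa5: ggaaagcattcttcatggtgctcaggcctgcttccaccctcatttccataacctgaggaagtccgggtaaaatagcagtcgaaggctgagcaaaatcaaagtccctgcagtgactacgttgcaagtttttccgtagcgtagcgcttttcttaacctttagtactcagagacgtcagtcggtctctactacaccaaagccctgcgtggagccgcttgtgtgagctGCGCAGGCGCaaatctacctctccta
Ndufs6: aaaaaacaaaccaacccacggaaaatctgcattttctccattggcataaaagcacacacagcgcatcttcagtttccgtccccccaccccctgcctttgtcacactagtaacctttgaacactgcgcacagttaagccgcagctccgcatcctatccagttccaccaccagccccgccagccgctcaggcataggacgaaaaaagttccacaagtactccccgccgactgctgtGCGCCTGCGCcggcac
Ndufaf1: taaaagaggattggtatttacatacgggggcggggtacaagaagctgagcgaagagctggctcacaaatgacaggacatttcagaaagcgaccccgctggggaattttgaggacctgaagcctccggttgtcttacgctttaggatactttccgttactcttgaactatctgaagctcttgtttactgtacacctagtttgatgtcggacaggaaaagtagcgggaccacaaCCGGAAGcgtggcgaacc

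The regulators themselves, 10 of 12 of which were tested, showed 0 calls between ALDH+ and ALDH- cells (limma, where 0 had an unadjusted p below 0.05), with a median of 0.07. Of all genes tested, 3.77% were called lower and 2.22% higher, and 11.9% were lower at an unadjusted p below 0.05. Esrra, a nuclear receptor of respiratory genes, differed by 0.44 ± 0.24 (SE, adjusted p = 0.30) and Tfam, which maintains mitochondrial DNA, by -0.45 ± 0.26 (SE, adjusted p = 0.34). Nrf1 and Gabpa differed by 0.04 ± 0.27 (SE, adjusted p = 0.95) and 0.03 ± 0.14 (SE, adjusted p = 0.93).

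**Figure D3:**
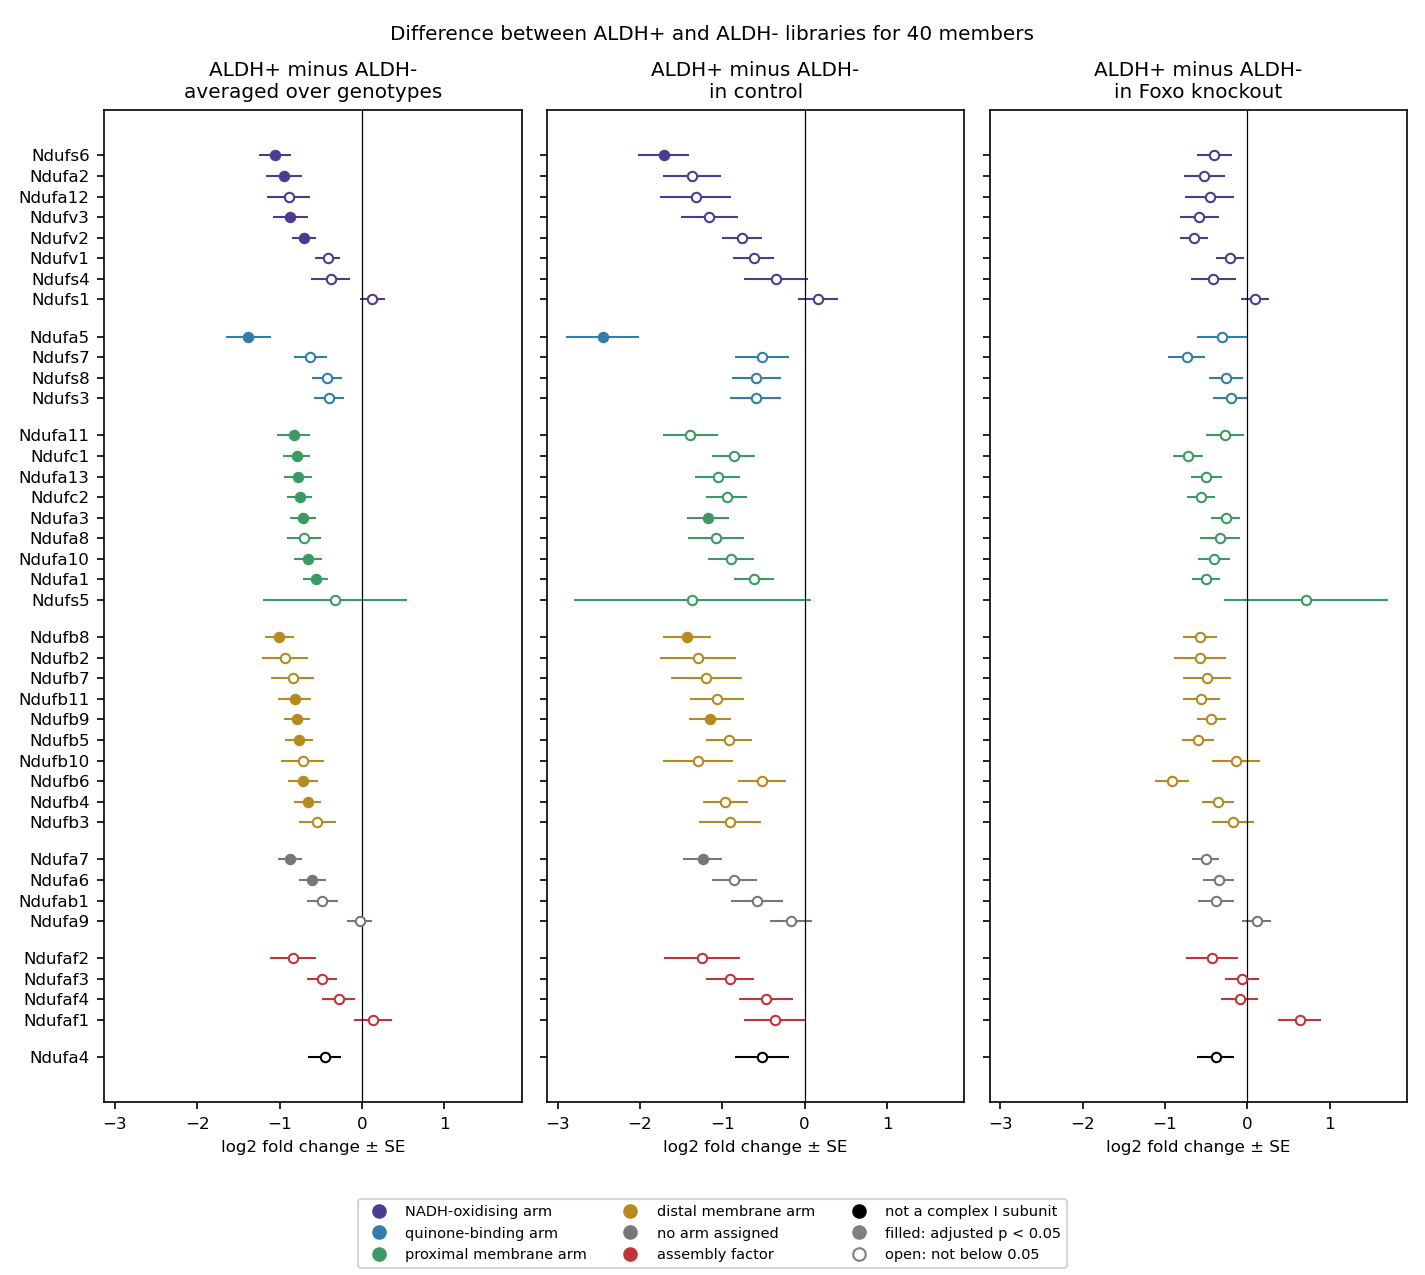
Log2 fold change between ALDH+ and ALDH- cells with its standard error (horizontal axis) for 40 tested members (vertical axis, by arm), averaged over genotypes, in controls and in knockouts. Filled points passed an adjusted p below 0.05, which gives 20, 6 and 0 of those drawn in the 3 panels. The assembly factors drawn, which leave out those under other or older symbols, are all open.

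In the NADH-oxidising arm, Ndufs6, a zinc-binding accessory subunit, changed most. Its promoter entry held the NRF1 and the YY1 letters, the latter not within the stretch shown above. For Ndufs6, control libraries gave 98.5, 103 and 96.2 FPKM in ALDH- and 19.0 and 50.8 in ALDH+ cells, and knockout libraries 58.8, 75.9, 65.3, 85.0 and 99.1 in ALDH- and 69.1, 63.4, 32.0, 69.3 and 61.7 in ALDH+ cells. The control populations were apart, with control ALDH+ 1 far below the rest, while the knockout populations overlapped. The log2 fold change was -1.06 ± 0.19 (SE, adjusted p = 0.0064), and within controls -1.71 ± 0.31 (SE, adjusted p = 0.035). Ndufa2, a small accessory subunit of the tip of this arm, followed the same order. The levels of Ndufa2 were 165, 155 and 169 FPKM (control ALDH-), 45.6 and 95.1 (control ALDH+), 144, 114, 168, 127 and 280.0 (knockout ALDH-) and 139.6, 116, 57.0, 121 and 142 (knockout ALDH+). Both populations overlapped in knockouts and were apart in controls, and the averaged difference was -0.94 ± 0.22 (SE, adjusted p = 0.018). Ndufv3 was at 209, 196 and 248 FPKM in control ALDH- and 59.8 and 182 in control ALDH+ libraries, against 186, 167, 227, 194 and 371 in knockout ALDH- and 166, 144, 72.9, 183 and 207 in knockout ALDH+ libraries. This accessory flavoprotein subunit was lowest in control ALDH+ 1 and knockout ALDH+ 3 and highest in knockout ALDH- 5, and its difference was -0.87 ± 0.21 (SE, adjusted p = 0.025).

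The core subunits of that arm carry its redox groups. Ndufv2 holds an iron-sulphur cluster beside the flavin site. For Ndufv2, control libraries gave 40.0, 36.4 and 41.4 FPKM in ALDH- and 16.4 and 32.4 in ALDH+ cells, and knockout libraries 40.7, 33.7, 31.2, 38.5 and 33.0 in ALDH- and 25.8, 23.9, 17.3, 21.2 and 23.8 in ALDH+ cells. ALDH+ libraries lay below ALDH- libraries within each genotype, with a difference of -0.71 ± 0.15 (SE, adjusted p = 0.011), but control ALDH+ 2 exceeded knockout ALDH- 3. Ndufv1 binds NADH and the flavin. The levels of Ndufv1 were 32.6, 46.1 and 53.6 FPKM (control ALDH-), 25.1 and 35.1 (control ALDH+), 45.0, 33.1, 24.7, 57.0 and 48.7 (knockout ALDH-) and 30.2, 34.7, 23.2, 39.2 and 49.9 (knockout ALDH+). Its populations overlapped in both genotypes and its ALDH difference was -0.42 ± 0.15 (SE, adjusted p = 0.12). Ndufs1, the largest core subunit, carries several iron-sulphur clusters. Ndufs1 was at 34.3, 32.2 and 18.4 FPKM in control ALDH- and 34.7 and 24.9 in control ALDH+ libraries, against 29.8, 37.3, 21.9, 24.5 and 24.8 in knockout ALDH- and 31.5, 32.2, 28.2, 33.1 and 21.8 in knockout ALDH+ libraries. It was the only subunit with a fold change above 0 in the averaged comparison, 0.13 ± 0.15 (SE, adjusted p = 0.69), and all groups overlapped. For Ndufs4, control libraries gave 24.9, 34.9 and 40.4 FPKM in ALDH- and 30.1 and 21.4 in ALDH+ cells, and knockout libraries 41.5, 62.9, 46.9, 25.6 and 42.5 in ALDH- and 43.1, 30.5, 16.5, 31.1 and 45.1 in ALDH+ cells. Ndufs4 is an accessory subunit whose loss causes Leigh syndrome, its groups overlapped, and its difference was -0.38 ± 0.24 (SE, adjusted p = 0.39). Ndufa12, an accessory subunit of this arm, ranged from 12.5 to 57.0 FPKM with a difference of -0.89 ± 0.26 (SE, adjusted p = 0.056).

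In the quinone-binding arm the accessory subunit Ndufa5, which also has the NRF1 letters, had the largest difference of all members tested. The levels of Ndufa5 were 55.9, 54.4 and 70.5 FPKM (control ALDH-), 3.90 and 29.7 (control ALDH+), 40.6, 34.3, 48.0, 70.2 and 66.5 (knockout ALDH-) and 54.0, 42.0, 18.1, 55.1 and 46.5 (knockout ALDH+). Control ALDH+ 1 was more than an order of magnitude below each control ALDH- library, control ALDH+ 2 lay between, and the knockout populations overlapped. The averaged log2 fold change was -1.38 ± 0.27 (SE, adjusted p = 0.0088) and that within controls -2.45 ± 0.45 (SE, adjusted p = 0.035), and without control ALDH+ 1 the averaged value was -0.84 (adjusted p = 0.16). Ndufa5 rested on 13 to 262 fragments per library. In the tables, which use the mm9 build, Ndufa5 spans chr6:24468666-24477687. Ndufs7 holds the last iron-sulphur cluster before quinone. Ndufs7 was at 60.7, 84.6 and 94.5 FPKM in control ALDH- and 49.5 and 66.3 in control ALDH+ libraries, against 66.5, 71.9, 66.2, 61.3 and 92.1 in knockout ALDH- and 44.8, 49.2, 18.1, 56.1 and 58.2 in knockout ALDH+ libraries. The knockout populations did not overlap, the control populations did through control ALDH+ 2, and the averaged difference was -0.63 ± 0.20 (SE, adjusted p = 0.077). For Ndufs3, control libraries gave 64.7, 48.9 and 70.1 FPKM in ALDH- and 40.1 and 42.7 in ALDH+ cells, and knockout libraries 41.8, 40.3, 49.9, 58.1 and 73.7 in ALDH- and 55.9, 56.0, 22.7, 47.0 and 52.4 in ALDH+ cells. Ndufs3, a core scaffold of this arm, had overlapping knockout populations and a difference of -0.40 ± 0.19 (SE, adjusted p = 0.24). Ndufs8, another core subunit of this arm, ranged from 30.7 to 81.4 FPKM and differed by -0.42 ± 0.18 (SE, adjusted p = 0.19).

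The proximal membrane arm joins the matrix arms to the membrane, and 7 of its 9 members here were called lower. The levels of Ndufa13 were 64.0, 62.9 and 83.3 FPKM (control ALDH-), 27.7 and 45.5 (control ALDH+), 60.8, 36.1, 62.6, 67.6 and 120.3 (knockout ALDH-) and 40.5, 47.0, 29.9, 60.8 and 55.7 (knockout ALDH+). Ndufa13, an accessory subunit that crosses the membrane and reaches the quinone arm, was apart in controls and overlapped in knockouts through knockout ALDH- 2, with a difference of -0.78 ± 0.17 (SE, adjusted p = 0.013). Ndufc2 was at 243, 289 and 399 FPKM in control ALDH- and 116 and 237 in control ALDH+ libraries, against 244, 225, 309, 291 and 372 in knockout ALDH- and 220.2, 194, 129, 201 and 231 in knockout ALDH+ libraries. For Ndufc2, a membrane subunit that is among the most abundant members, knockout ALDH- 2 lay below knockout ALDH+ 5, and the difference was -0.76 ± 0.15 (SE, adjusted p = 0.0088). For Ndufc1, control libraries gave 175, 139 and 125 FPKM in ALDH- and 69.3 and 91.2 in ALDH+ cells, and knockout libraries 167, 159.8, 276, 177 and 254 in ALDH- and 148, 101, 121, 136 and 107 in ALDH+ cells. Ndufc1, its short partner, had no overlap in either genotype and differed by -0.79 ± 0.16 (SE, adjusted p = 0.0097).

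The remaining members of that arm were similar in direction. The levels of Ndufa11 were 30.4, 35.5 and 31.3 FPKM (control ALDH-), 8.17 and 18.2 (control ALDH+), 29.4, 23.4, 27.2, 30.5 and 38.2 (knockout ALDH-) and 29.7, 30.4, 12.0, 25.6 and 29.7 (knockout ALDH+). This membrane accessory subunit was low in control ALDH+ 1 and knockout ALDH+ 3 and otherwise overlapped in knockouts, with a difference of -0.83 ± 0.20 (SE, adjusted p = 0.025). Ndufa3 was at 169.8, 196 and 179 FPKM in control ALDH- and 51.7 and 131 in control ALDH+ libraries, against 176, 162, 188, 207 and 197 in knockout ALDH- and 155, 161, 135, 134 and 195 in knockout ALDH+ libraries. Ndufa3, a small membrane subunit, differed by -0.72 ± 0.16 (SE, adjusted p = 0.014), with its lowest value in control ALDH+ 1. For Ndufa1, control libraries gave 128, 143 and 174 FPKM in ALDH- and 73.3 and 138 in ALDH+ cells, and knockout libraries 130.0, 106, 165, 179.8 and 164 in ALDH- and 129.7, 93.7, 67.0, 124 and 114 in ALDH+ cells. Ndufa1, an X-linked membrane subunit needed for assembly, overlapped only between control ALDH+ 2 and control ALDH- 1 in controls and overlapped in knockouts, and differed by -0.56 ± 0.15 (SE, adjusted p = 0.037). The levels of Ndufa10 were 44.8, 54.8 and 68.5 FPKM (control ALDH-), 24.7 and 34.0 (control ALDH+), 55.6, 66.3, 55.8, 43.0 and 74.7 (knockout ALDH-) and 47.7, 45.6, 60.6, 32.4 and 36.2 (knockout ALDH+). Ndufa10, which has a nucleoside kinase fold, was in ALDH+ cells highest in knockout ALDH+ 3, where many subunits were lowest, and differed by -0.65 ± 0.17 (SE, adjusted p = 0.035). Ndufs5 was at 12.7, 4.34 and 5.88 FPKM in control ALDH- and 7.0e-05 and 10.5 in control ALDH+ libraries, against 7.3e-05, 17.0, 11.3, 4.8e-05 and 18.4 in knockout ALDH- and 16.3, 9.18, 7.3e-05, 9.80 and 26.0 in knockout ALDH+ libraries. Ndufs5, an intermembrane-space subunit, rested on 0 to 55 fragments per library and had estimates of at most 7.3e-05 FPKM in 4 of them, so its difference of -0.32 ± 0.88 (SE, adjusted p = 0.88) is poorly measured. Ndufa8, also facing the intermembrane space, ranged from 20.0 to 71.8 FPKM and differed by -0.70 ± 0.21 (SE, adjusted p = 0.061).

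The distal membrane arm holds the Ndufb subunits, which are all accessory. For Ndufb8, control libraries gave 133, 180.2 and 229 FPKM in ALDH- and 42.5 and 111 in ALDH+ cells, and knockout libraries 172, 143, 131, 175 and 229 in ALDH- and 133, 128, 71.9, 121 and 114 in ALDH+ cells. Ndufb8 was apart in controls and overlapped in knockouts through knockout ALDH+ 1, with differences of -1.003 ± 0.18 (SE, adjusted p = 0.0064) on average and -1.43 ± 0.30 (SE, adjusted p = 0.036) in controls. The levels of Ndufb9 were 248, 209.5 and 254 FPKM (control ALDH-), 86.0 and 136 (control ALDH+), 164, 254, 219, 157 and 221 (knockout ALDH-) and 142, 169.6, 104, 155 and 177 (knockout ALDH+). Ndufb9, which binds an acyl carrier protein, was similar, at -0.79 ± 0.16 (SE, adjusted p = 0.0089) on average and -1.15 ± 0.26 (SE, adjusted p = 0.042) in controls. Ndufb11 was at 129.8, 118 and 171 FPKM in control ALDH- and 51.6 and 94.7 in control ALDH+ libraries, against 116, 93.2, 137, 139.8 and 156 in knockout ALDH- and 103, 85.8, 35.0, 120.4 and 121 in knockout ALDH+ libraries. Ndufb11, an X-linked subunit, overlapped in knockouts and differed by -0.81 ± 0.20 (SE, adjusted p = 0.026).

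The other Ndufb subunits had the following levels. For Ndufb5, control libraries gave 72.6, 84.4 and 105 FPKM in ALDH- and 39.7 and 56.9 in ALDH+ cells, and knockout libraries 80.2, 73.5, 100.3, 88.7 and 141 in ALDH- and 58.4, 76.2, 34.0, 86.7 and 68.2 in ALDH+ cells. Knockout ALDH+ 4 was as high as several ALDH- libraries, and the difference was -0.76 ± 0.17 (SE, adjusted p = 0.016). The levels of Ndufb6 were 97.2, 88.5 and 129 FPKM (control ALDH-), 57.5 and 100.1 (control ALDH+), 90.3, 99.9, 152, 116 and 187 (knockout ALDH-) and 69.8, 78.1, 37.9, 68.1 and 86.4 (knockout ALDH+). Ndufb6 did not overlap in knockouts and did in controls, and differed by -0.72 ± 0.18 (SE, adjusted p = 0.03). Ndufb4 was at 29.2, 35.99 and 37.2 FPKM in control ALDH- and 11.7 and 25.8 in control ALDH+ libraries, against 31.1, 31.2, 37.4, 29.8 and 47.5 in knockout ALDH- and 32.8, 28.0, 20.9, 30.4 and 24.6 in knockout ALDH+ libraries. Ndufb4 rested on 26 to 113 fragments per library, overlapped in knockouts, and differed by -0.66 ± 0.17 (SE, adjusted p = 0.03). For Ndufb10, control libraries gave 150.01, 128 and 104 FPKM in ALDH- and 44.7 and 59.2 in ALDH+ cells, and knockout libraries 61.2, 82.9, 112, 93.4 and 110.4 in ALDH- and 109, 129.5, 32.0, 87.0 and 90.3 in ALDH+ cells. For Ndufb10 the knockout populations overlapped widely and the difference was -0.72 ± 0.26 (SE, adjusted p = 0.11). Ndufb2, Ndufb3 and Ndufb7 ranged from 27.0 to 193, 31.6 to 192 and 22.8 to 141 FPKM. They did not pass the test, with log2 fold changes of -0.94, -0.54 and -0.84 and adjusted p-values of 0.061, 0.18 and 0.068.

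Of the subunits placed in no arm here, Ndufa7 had the smallest adjusted p of all members. The levels of Ndufa7 were 116, 146 and 217 FPKM (control ALDH-), 50.5 and 92.1 (control ALDH+), 137, 146, 204, 208 and 212 (knockout ALDH-) and 135, 138, 95.1, 140.2 and 124 (knockout ALDH+). Control ALDH+ libraries lay below every control ALDH- library, knockout libraries overlapped, and this small accessory subunit differed by -0.87 ± 0.14 (SE, adjusted p = 0.005). Ndufa6 was at 103, 92.3 and 109 FPKM in control ALDH- and 41.8 and 81.0 in control ALDH+ libraries, against 91.4, 56.8, 98.9, 98.9 and 149 in knockout ALDH- and 68.2, 87.8, 58.9, 87.6 and 72.5 in knockout ALDH+ libraries. Ndufa6, which holds an acyl carrier protein on the matrix side, differed by -0.60 ± 0.17 (SE, adjusted p = 0.043), with knockout ALDH- 2 below all but 1 of the ALDH+ libraries. For Ndufa9, control libraries gave 64.3, 97.1 and 65.2 FPKM in ALDH- and 78.3 and 50.8 in ALDH+ cells, and knockout libraries 94.6, 59.8, 104, 58.03 and 59.8 in ALDH- and 89.5, 74.7, 87.3, 88.5 and 58.8 in ALDH+ cells. Ndufa9, a dehydrogenase-like subunit near the quinone site, had overlapping groups and a difference of -0.03 ± 0.15 (SE, adjusted p = 0.95). Ndufab1, the mitochondrial acyl carrier protein, ranged from 9.13 to 30.3 FPKM and differed by -0.48 ± 0.19 (SE, adjusted p = 0.16).

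The assembly factors were expressed at lower levels than most subunits on the FPKM scale, which is per length. Ndufaf1, whose promoter holds the ETS/GABP letters, acts with Ecsit and Acad9 in building the membrane arm. The levels of Ndufaf1 were 7.95, 8.48 and 6.45 FPKM (control ALDH-), 5.98 and 5.69 (control ALDH+), 2.04, 2.24, 2.56, 4.97 and 6.38 (knockout ALDH-) and 5.20, 5.30, 8.17, 5.46 and 5.03 (knockout ALDH+). Knockout ALDH- 1, 2 and 3, the RIP-Cre libraries, were the lowest of all 15, and knockout ALDH+ 3, the library with the lowest subunit values among knockout ALDH+ libraries, was the highest of its group. The ALDH difference was 0.13 ± 0.23 (SE, adjusted p = 0.79) on average, -0.36 ± 0.37 (SE, adjusted p = 0.73) in controls and 0.63 ± 0.26 (SE, adjusted p = 0.30) in knockouts. Ndufaf2, a paralog of Ndufa12, is needed late, when the NADH-oxidising arm is added. Ndufaf2 was at 16.9, 24.4 and 43.8 FPKM in control ALDH- and 8.65 and 12.8 in control ALDH+ libraries, against 32.6, 12.7, 28.8, 11.2 and 15.8 in knockout ALDH- and 8.95, 13.6, 19.0, 15.9 and 11.9 in knockout ALDH+ libraries. The control populations were apart, the spread within knockout ALDH- cells was wide and the knockout populations overlapped, and the averaged difference was -0.84 ± 0.28 (SE, adjusted p = 0.089).

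Ndufaf3 and Ndufaf4 act together early, on the quinone-binding arm. For Ndufaf3, control libraries gave 40.7, 43.0 and 52.2 FPKM in ALDH- and 23.8 and 23.9 in ALDH+ cells, and knockout libraries 39.1, 24.0, 50.6, 24.3 and 46.5 in ALDH- and 34.3, 30.2, 29.8, 33.3 and 41.6 in ALDH+ cells. Control ALDH+ libraries lay below control ALDH- libraries and knockout libraries overlapped, and Ndufaf3 differed by -0.49 ± 0.18 (SE, adjusted p = 0.12). The levels of Ndufaf4 were 6.59, 6.72 and 9.32 FPKM (control ALDH-), 3.15 and 8.25 (control ALDH+), 9.499, 10.99, 10.2, 7.03 and 8.59 (knockout ALDH-) and 10.2, 8.69, 6.71, 9.10 and 8.20 (knockout ALDH+). Control ALDH+ 1 was the lowest and the groups otherwise overlapped, and Ndufaf4 differed by -0.28 ± 0.20 (SE, adjusted p = 0.46). Assembly factors known by other symbols gave 10 tested genes, among them Ecsit (-0.39 ± 0.23, adjusted p = 0.37), Acad9 (-0.39 ± 0.22, adjusted p = 0.33) and Tmem126b (-0.41 ± 0.17, adjusted p = 0.18). None passed the test in the averaged comparison (limma, where 2 were lower at an unadjusted p below 0.05, against 11.9% of all genes), and their median was -0.32. Later Ndufaf genes were listed under older symbols and were looked up after values had been seen. Of them, Ndufaf8, listed as 1810043H04Rik, was lower (-1.24 ± 0.25, adjusted p = 0.0095), while Ndufaf5 (-0.41 ± 0.25, adjusted p = 0.38), Ndufaf6 (-0.10 ± 0.32, adjusted p = 0.89) and Ndufaf7 (0.10 ± 0.18, adjusted p = 0.80) did not pass. The mitochondrially encoded subunits were not analysed here.

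**Figure D4:**
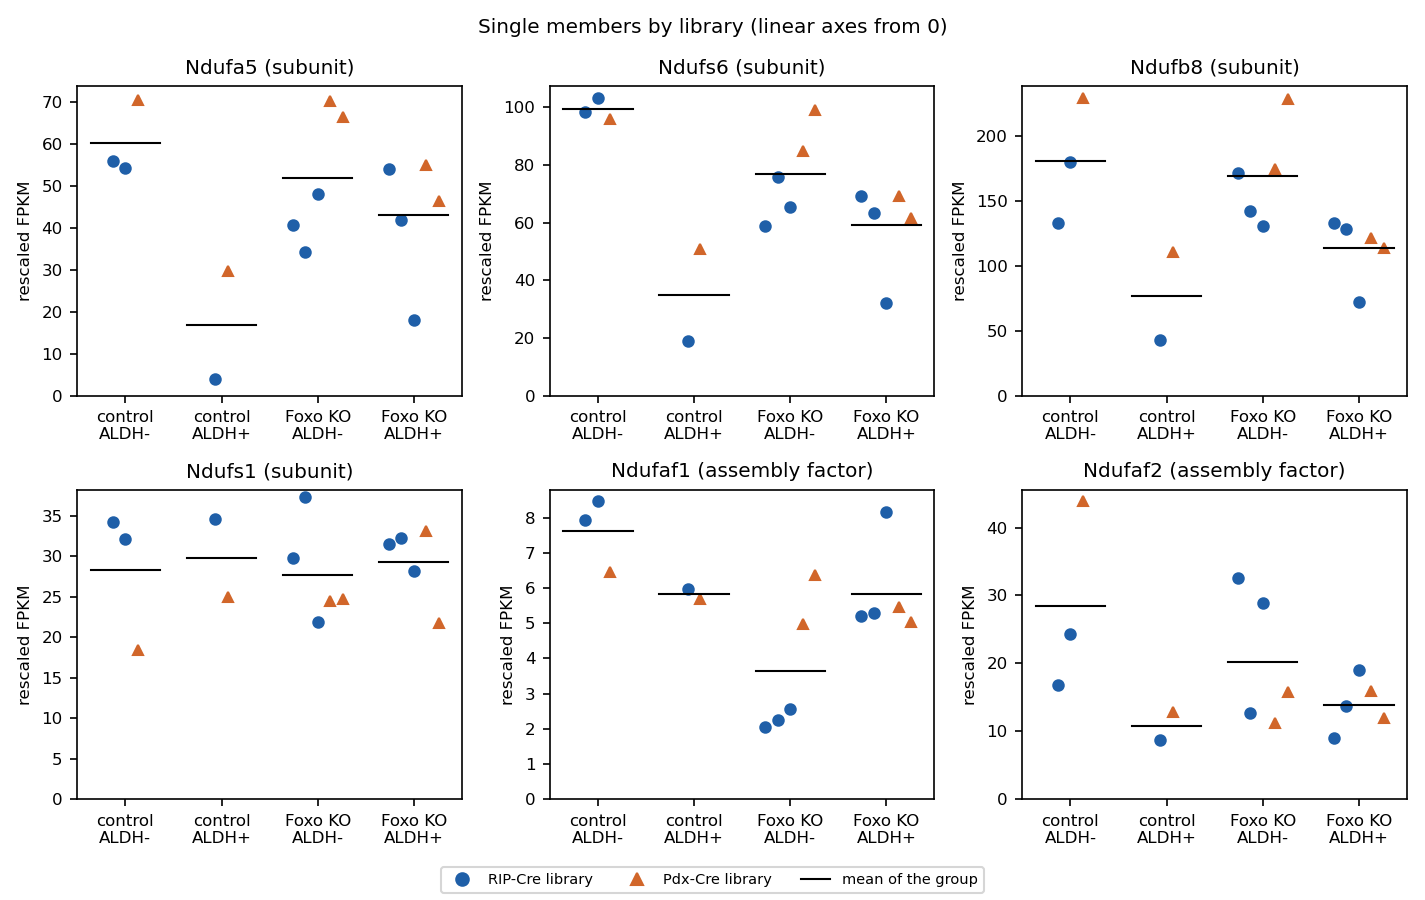
Rescaled FPKM (vertical axes, linear) of Ndufa5, Ndufs6, Ndufb8, Ndufs1, Ndufaf1 and Ndufaf2 in each library by group (horizontal axis), with a line at the group mean. Ndufa5 fell to 3.90 in control ALDH+ 1, Ndufs1 overlapped in every group, and Ndufaf1 was between 2.04 and 2.56 in the RIP-Cre knockout ALDH- libraries.

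Of the 42 members, 2 carry the symbol without being complex I subunits. Ndufa4 was at 286, 443 and 327 FPKM in control ALDH- and 209 and 298 in control ALDH+ libraries, against 369, 346, 481, 393 and 573 in knockout ALDH- and 397, 350.1, 166, 446 and 353 in knockout ALDH+ libraries. Ndufa4, now known as a subunit of cytochrome c oxidase (complex IV), was the most abundant member in most libraries, its groups overlapped, and its difference was -0.45 ± 0.20 (SE, adjusted p = 0.20). Ndufa4l2, its paralog that hypoxia induces, lay between 0 and 1.69 FPKM, on at most 13 fragments, and was not tested.

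Within controls, ALDH+ cells had lower levels of 6 subunits (Ndufa5, Ndufs6, Ndufb8, Ndufa7, Ndufa3 and Ndufb9), where 0.755% of all genes tested were lower, with a subunit median of -0.96 and an assembly factor median of -0.69. The lowest control ALDH- library lay above both control ALDH+ libraries for 26 of 36 subunits and 3 of 4 assembly factors, against 17.1% of all genes. Without control ALDH+ 1, 0 members were called, where 1 of 11216 genes was, and the medians were -0.64 and -0.74. Leaving out any of the control ALDH- libraries left 0 genes called in all, leaving out knockout ALDH- 1 left 0 members where 9 of 11264 genes were called, and leaving out knockout ALDH+ 3 gave 12 members of 245 genes called. Within knockouts, 0 members passed (limma, where 15 subunits were lower and Ndufaf1 higher at an unadjusted p below 0.05, against 7.34% of all genes lower and 5.74% higher), with medians of -0.41 for subunits and -0.08 for assembly factors. Of all 11253 genes, 0 were called lower (0%) and 0.0178% higher in knockouts. The smallest adjusted p was that of Ndufb6 (-0.91 ± 0.20, adjusted p = 0.13), and ALDH+ libraries did not overlap ALDH- libraries for 4 subunits, Ndufs7, Ndufv2, Ndufc1 and Ndufb6, against 0.96% of all genes. Over all 15 libraries without regard to genotype, 0 of 41 members had ALDH+ libraries wholly below ALDH- libraries, against 0.293% of all genes.

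Whether the ALDH difference itself depended on genotype was tested as an interaction, and 0 members passed, as did 0% of all genes (limma, where 10 were higher at an unadjusted p below 0.05, against 2.66% of all genes). The interaction was above 0 for 32 of 36 subunits, where it was below 0 for 48.3% of all genes, with a median of 0.53, and for 4 of 4 assembly factors, with a median of 0.83. It was 2.15 ± 0.54 (SE, adjusted p = 0.92) for Ndufa5, 1.32 ± 0.38 (SE, adjusted p = 0.998) for Ndufs6 and 1.00 ± 0.45 (SE, adjusted p = 0.998) for Ndufaf1. For Ndufa5 it was 1.06 without control ALDH+ 1. The 5 nuclear-retained RNAs had an interaction median of -1.50.

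Between genotypes, 0 members passed in ALDH- cells, against 0.00889% of all genes in each direction (limma, where Ndufc1 was higher and Ndufaf1 lower at an unadjusted p below 0.05, against 2.74% and 3.04% of all genes). The subunit median was -0.12 and the assembly factor median -0.42. Ndufaf1 was at 7.95, 8.48 and 6.45 FPKM in control and 2.04, 2.24, 2.56, 4.97 and 6.38 in knockout ALDH- libraries. These groups were apart only by 6.45 in control ALDH- 3 against 6.38 in knockout ALDH- 5. Before rescaling the same libraries were at 5.92 and 6.05 FPKM, so the groups overlapped. The log2 fold change was -0.996 ± 0.30 (SE, adjusted p = 0.68). Within RIP-Cre libraries alone it was -1.50, and within Pdx-Cre libraries -0.17, where control ALDH- is a single library, and Ndufaf1 rested on 28 to 136 fragments per library. In ALDH+ cells 0 members passed either, against 0% of all genes (limma, where 13 were higher at an unadjusted p below 0.05, against 4.05% of all genes), the medians being 0.44 for subunits and 0.41 for assembly factors. Ndufa5 differed by 1.84 ± 0.41 (SE, adjusted p = 0.38), and by 0.77 without control ALDH+ 1. Leaving out control ALDH+ 2 instead gave 2 calls. The comparisons within ALDH+ cells and within controls share the control ALDH+ libraries.

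Pdx-Cre and RIP-Cre libraries differed in 5 subunits, all higher under Pdx-Cre, where 5.68% of all genes were higher and 4.05% lower. These were Ndufa13 (0.63 ± 0.16, adjusted p = 0.019), Ndufv1 (0.57 ± 0.14, adjusted p = 0.021), Ndufa5 (0.87 ± 0.26, adjusted p = 0.045), Ndufv3 (0.67 ± 0.20, adjusted p = 0.045) and Ndufc2 (0.47 ± 0.14, adjusted p = 0.046). The subunit median was 0.42 and the assembly factor median 0.12, with 0 assembly factors called (limma, where 0 had an unadjusted p below 0.05 and 18 subunits were higher at it, against 13.7% of all genes). Ndufa9 (-0.38) and Ndufs1 (-0.35) were among those lower at an unadjusted p below 0.05, against 12.1% of all genes, and 0 members were lower in the adjusted test. With control ALDH+ 1 and knockout ALDH+ 3, both RIP-Cre, left out, 0 members were called, where 704 of 11221 genes were, and leaving out 1 library at a time gave between 1 (without knockout ALDH- 5, control ALDH+ 2 or knockout ALDH+ 5) and 8 (without knockout ALDH- 3). The driver difference also moved with transcript length. All genes under 750 bases had a median of 0.29, those from 750 to under 1500 bases 0.16, those from 1500 to under 3000 bases 0.02 and longer ones -0.10, and the subunit medians in the first 3 of these classes were 0.45, 0.35 and -0.04. With the trend on length removed, 4 members were called, where 910 of 11128 genes were. The alpha, delta and PP cell marker sums were higher in each Pdx-Cre ALDH- library than in any RIP-Cre ALDH- library. Their part and that of length in the result were not tested. No member passed a test of whether the ALDH difference depended on the driver (limma, where 0 had an unadjusted p below 0.05, against 2.19% of all genes lower and 2.35% higher). Within RIP-Cre libraries alone the ALDH medians were -0.87 for subunits and -0.53 for assembly factors, with 7 members called, where 156 of 11125 genes were, and within Pdx-Cre libraries alone -0.53 and -0.30, with 0 called, where 4 of 11269 genes were.

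Some members are uncertain in level. Ndufs1, Ndufa4l2, Ndufa2, Ndufs5, Ndufa13 and Ndufb11 overlap another entry in the tables, and counting by strand is not stated, so their reads and those of the partner cannot be told apart. Ndufa11, Ndufab1, Ndufb4 and Ndufs6 have named copies in the reference (Ndufa11b, Ndufab1-ps, Ndufb4c and Ndufs6b), with which reads could be split.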

How the data were processed

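Poly-A RNA of sorted mouse islet cells was sequenced with TruSeq preparation in 15 libraries. Per the labels, reads were handled with bcl2fastq 1.8.4 and TopHat2 2.0.4 on mm9, and the quantifier and annotation are not given in the sources used here. The authors deposited 1 table per library of FPKM values with confidence bounds, in the layout of Cufflinks, and tested counts with DESeq, which were not used here. Repeated symbols (712 lines) and failed or too-deep estimates (63 lines) were left out, which left 22924 genes. Fragments behind a value, worked out from its bounds, summed to 7492010 to 10057827 per library (median 9281911), and 66.2% of values under 500 fragments came within 0.02 of a whole number, so count models were not used although they had been foreseen.

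FPKM were rescaled by a trimmed mean of M-values (30% of M-values and 5% of A-values on each side). Values were fitted as log2(FPKM + 1) with limma 3.58.1 in R 4.3.3, with the 4 groups and the Cre driver in 1 model, on 11253 genes with a mean of at least 1 FPKM, and two-sided tests were adjusted by Benjamini-Hochberg per comparison and called below 0.05. The procedure was also run on simulated data with independent noise for each gene. Those data held no length trend and no outlying library, so that run does not bear on either. Pearson correlations within groups were 0.846 to 0.958 over 24 pairs. Groups came from the labels, and the main fit did not pair libraries by replicate number. Alternatives were the pseudocount, filter, scaling, Cre driver, length trend, replicate block and leaving out libraries. Levels in every library are given for members at an adjusted p below 0.05 in any comparison, for the 3 tested members with the largest and the 3 with the smallest fold change in each, and for Ndufa4, Ndufa4l2 and every Ndufaf gene. The values of 1 subunit are counted in the summaries but not reported singly here. The members and lists were chosen with earlier results of these data known. Transcript lengths, as medians over annotated reference transcripts, were found for 98.0% of genes, and promoters came from RefSeq GRCm38.p6.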

Additional observations from a re-analysis of the deposited data

Results flagged for a closer look

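A library far from the rest of its group, by Dixon's test at its 95% level within the groups of 5 libraries, was found for 15 of 82 member groups, where chance gives about 5%. Over all 11253 genes tested the same test marked 6.72% of genes in knockout ALDH+ libraries (16.4% of those under 750 bases), against 14 of 41 members, and 5.92% in knockout ALDH- libraries, against 1 of 41. The members share libraries and are not independent of each other. In 13 of the 15 knockout ALDH+ 3 was the lowest of the knockout ALDH+ libraries, at 52.6 FPKM for Ndufb3, 18.1 for Ndufs7, 32.0 for Ndufs6, 32.0 for Ndufb10, 12.0 for Ndufa11, 57.0 for Ndufa2 and 71.9 for Ndufb8. The same library was lowest at 22.7 FPKM for Ndufs3, 37.9 for Ndufb6, 166 for Ndufa4, 18.1 for Ndufa5, 22.8 for Ndufb7 and 35.0 for Ndufb11. For the assembly factor Ndufaf1 it was the highest, at 8.17 FPKM. Knockout ALDH- 5 was the highest of its group for Ndufb3, at 192 FPKM. Genes under 750 bases had a median deviation from their mean over all libraries of -0.51 on the log2 scale in knockout ALDH+ 3 and of -0.62 in control ALDH+ 1, and their part in these values was not tested.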

How the results depend on the processing

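The 21 calls between ALDH+ and ALDH- cells, the 6 in controls and the 5 between Cre drivers changed with the processing, the cause of which was not tested. Without the filter they were 12, 3 and 2, and without rescaling the drivers gave 2. Quantile scaling gave 7 and 1 for the ALDH calls, removing the length trend 4 and 1 with a subunit median of -0.58 in controls, and leaving the Cre driver out 6 and 0. RIP-Cre libraries alone gave 7 and 2, Pdx-Cre libraries alone 0 and 0, and the compared groups alone 17 in controls. Without control ALDH+ 1 and knockout ALDH+ 3, a choice made after the data were seen, all 3 counts were 0. The calls over all genes, 674 in the averaged ALDH comparison, moved too, to 3 without control ALDH+ 1 and to 4 with Pdx-Cre libraries alone.

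Leaving out 1 library at a time gave 0 to 26 calls averaged over genotypes, 0 to 12 in controls, 1 to 8 between drivers, 0 to 2 between genotypes in ALDH+ cells and 0 to 1 for the interaction. No single-gene value that passed the threshold in the main fit changed sign. Over gene tests, call counts and medians together, 2958 results were the same, 402 weaker, 34 moved and 15 stronger. For a gene, weaker or stronger meant losing or gaining the threshold. Call counts made up 179 of the same, 40 of the weaker and 5 of the stronger results. Moved stood for shifted medians and for sign changes of genes that had not passed.

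Correlations of deviations from the fit did not settle whether equal replicate numbers pair the libraries. In knockouts, equal numbers gave -0.044 to 0.070, and different numbers under the same driver gave lower values, -0.289 to -0.061. In controls, equal numbers gave -0.045 and 0.038. The second value joins control ALDH- 2, a RIP-Cre library, with control ALDH+ 2, a Pdx-Cre library. These came from mice of different drivers, so equal numbers do not pair them. The deviations of the 2 control ALDH+ libraries mirror each other, so the check in controls could not show pairing. A block by replicate number, which joins those 2 control libraries of different drivers, gave 0 and 0 calls. A block within Cre driver gave 9 and 0. Depth was least for Ndufa4l2 (0 to 13 fragments per library) and Ndufs5 (0 to 55), and Ndufa5 had 13 in its lowest library.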
